A study of Mus musculus with 8 samples.

Results

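The potassium channel genes of a pancreatic β-cell line were examined after forced expression of Klf4. They were taken by name, as every gene whose symbol is Kcn followed by letters and a final number, with antisense and overlapping transcripts left out. This gave 92 of the 55536 genes in the deposited count table, all of them protein-coding. The name rule itself uses no measured value, but the family was chosen with earlier results of these data known. RNA came from MIN6, an insulin-producing line from a mouse pancreatic tumour, labelled wild type, 48 h after transfection with Lipofectamine 3000. Control cells (4 libraries) received the empty vector pcDNA 3, and Klf4 cells (4 libraries) received pGloMyc-Klf4, a plasmid for the zinc-finger transcription factor Klf4. The labels name the MIN6 line for every sample, while their extraction text speaks of islets, and this difference is not settled by the sources used here. The plasmids differ in name and may differ in backbone, and an effect of backbone and one of Klf4 cannot be told apart. Replicates 1 and 2 of both groups are batch 1 in the labels and replicates 3 and 4 are batch 2.

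Potassium channels let K+ leave the cell and hold its membrane potential negative. In β cells, channels of Kcnj11 subunits and the sulfonylurea receptor Abcc8 close when glucose metabolism raises ATP. The cell then depolarises, calcium enters and insulin is released. Voltage-gated and calcium-activated channels end each action potential, and tandem-pore channels carry background leak. Auxiliary subunits carry no current of their own and set the gating or surface delivery of the pore-forming subunits.

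Libraries held 45417853 to 52731176 counts. Klf4 itself, counted with its plasmid copy, went from 36.1 to 42.8 CPM (counts scaled to library size) in control to 4529 to 5849 CPM in Klf4 libraries. The 10 β-cell marker genes examined were all detected, with sums of 25318 to 32090 CPM (control) and 23641 to 32340 CPM (Klf4), and 5 of them were called lower. Lists of other cell types were far lower. Of them, 5 keratinocyte genes summed to 3.82 to 4.24 CPM in control and 21.6 to 33.2 CPM in Klf4 libraries, with the defining gene Trp63 at 0 in all Klf4 libraries. The 5 fibroblast genes went from 2.61 to 3.84 CPM to 20.97 to 27.3 CPM, and the 4 duct genes from 0.518 to 0.944 CPM to 3.27 to 4.83 CPM. Sums for α, δ, acinar, PP, neuron and immune genes overlapped between the groups. The keratinocyte, fibroblast and duct sums move with the potassium channel genes that rose, and their part in the results was not tested. In such bulk RNA, fewer cells carrying a transcript and less of it per cell cannot be told apart.

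In control cells the potassium channel genes spanned from no counts to 54.9 RPKM, which is CPM divided by exon length in kilobases and on which scale genes can be compared. Kcnh6, a voltage-gated subunit of the erg family, stood highest at 54.9 ± 2.73 RPKM (SD, n = 4), above Kcnj11 at 34.1 ± 3.12 RPKM. Kcnip3, a calcium-binding partner of Kcnd channels, followed at 30.4 ± 1.46 RPKM and lay below Kcnj11 in each control library. Kcnh2, the other erg subunit of high level, was at 22.7 ± 0.526 RPKM. By mean RPKM these 4 genes held the same order in Klf4 cells. There Kcnj11 (31.3 ± 3.34 RPKM) and Kcnip3 (30.4 ± 2.78 RPKM) were close, and Kcnip3 was slightly above Kcnj11 in Klf4 replicate 3. In all, 24 genes reached 1 RPKM in control cells and 30 did so in Klf4 cells, the 6 added being Kcnk15, Kcnn4, Kcnip2, Kcnj12, Kcnh4 and Kcnj4. Of the 92 genes, 68 had enough counts to be tested and 24 did not, 3 of which (Kcna1, Kcna5 and Kcnk18) had no counts in any library.

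**Figure D1:**
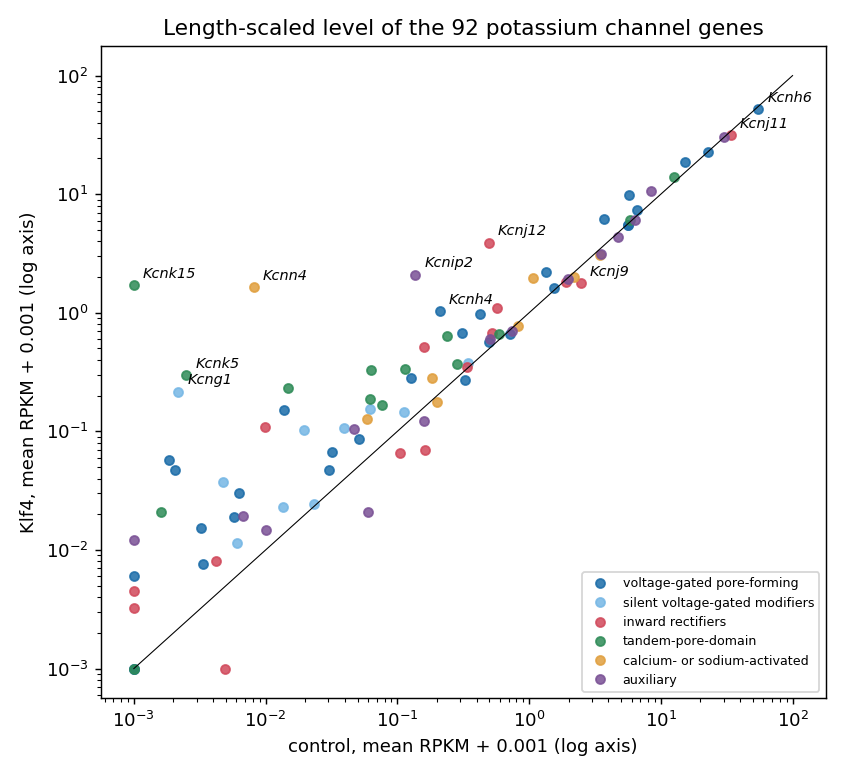
Mean length-scaled level of each of the 92 genes in control (x axis) and Klf4 libraries (y axis), as RPKM + 0.001 on log axes, each point 1 gene coloured by class, n = 4 libraries a group, with the line of equal level. Genes above about 1 RPKM in control lie close to the line, while Kcnk15, Kcnn4, Kcnk5 and Kcng1 lie at the left edge and far above it.

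With Klf4, 36 of the 68 tested genes were higher and 5 lower at an adjusted p under 0.05 (edgeR's quasi-likelihood test with a batch term, Benjamini-Hochberg adjustment over all 18266 tested genes). Over all tested genes 36.6% changed, 21.1% higher and 15.5% lower. Of the 68, 35 had every Klf4 library above every control library and 2 had every one below, where 17.2% and 8.95% of all tested genes did. The largest fitted log2 fold change was 10.41, for Kcnk15. That gene had no counts in any control library, so the size of its increase is not measured (8.35 with limma-voom). In all, 26 of the 68 tested genes were called with an increase of at least 1, against 8.5% of all tested genes. The decreases lay between -0.47 and -0.08. The median log2 fold change was 0.42 over the 68 genes and -0.01 over all tested genes. A test count favours genes that entered only because Klf4 libraries were high: 17 of the 68 had a control library under the filter's cutoff of 0.204 CPM, and 15 of these were called higher. All 15 are also among the 35 with groups apart and the 26 with an increase of at least 1. All 17 lie above the median of 0.42. Those counts and that median are thus raised by genes that entered this way. Among the 51 genes whose 4 control libraries all reached it, 21 were higher and 5 lower, 41.2% and 9.8%, against 18.1% and 17.4% of all genes of that kind.

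Calls were also counted by level. Of 29 tested genes with an average log2 CPM under 1, 21 were higher and 0 lower (22.1% and 1.87% of all genes in that range), but 16 of the 29 had a control library under the cutoff. Of the 13 others, 7 were higher and 0 lower (11.2% and 2.8% of all such genes). Between 1 and 4, 9 of 23 were higher and 1 lower (26.1% and 9.82% of all genes), and without the 1 gene that had a control library under the cutoff, 8 of 22 and 1 (23.8% and 10.1%). From 4 upward, 6 of 16 were higher and 4 lower (18.3% and 26.2%). Summed over all 92 genes the level came to 1189 ± 62.2 CPM with empty vector and 1282 ± 49.9 CPM with Klf4 (SD, n = 4), 1.078 times as much. Control replicates 1 to 4 gave 1238, 1248, 1134 and 1137 CPM and Klf4 replicates 1 to 4 gave 1304, 1323, 1210 and 1291 CPM, so that the groups overlapped across batches but not within them.

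**Figure D2:**
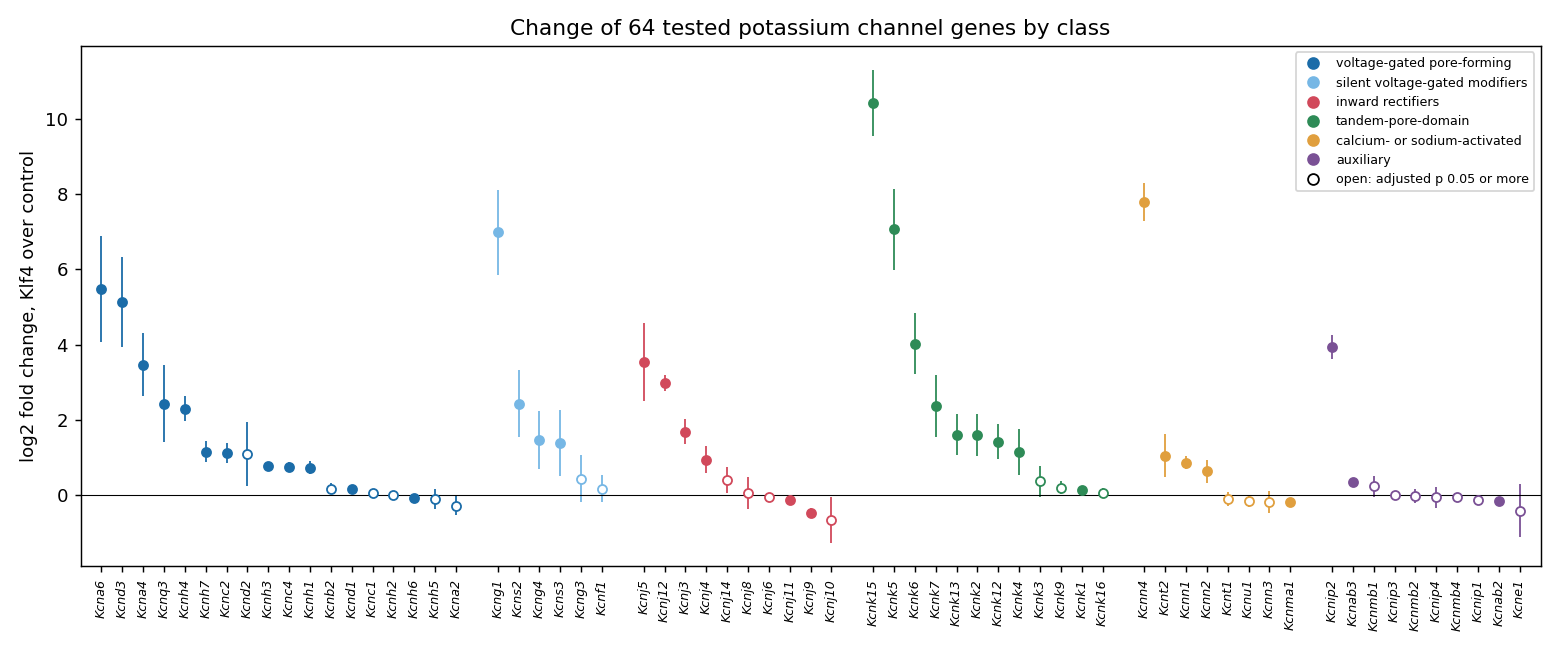
Log2 fold change of Klf4 over control libraries for 64 of the 68 tested genes, grouped and coloured by class and ordered by size within it. Bars are 95% intervals from the fitted standard error, and open points did not pass the threshold. The tandem-pore class reaches 10.41 with Kcnk15 and has no gene below zero, while most auxiliary genes lie near zero. Kcnk15 had no counts in any control library, so its point and bar come from the fit and do not measure the size.

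Of 14 tandem-pore-domain genes, 12 were tested, with 9 higher and 0 lower (21.1% and 15.5% of all tested genes). Of these 9, 5 had a control library under the filter's cutoff and so were tested because Klf4 libraries were high. Among the 7 genes with all control libraries at the cutoff, 4 were higher (18.1% of all such genes). Kcnk15 (chromosome 2, 163853651 to 163859746, plus strand, GRCm38), a member of the acid-sensitive subfamily by sequence, had no counts in any control library and 133, 134, 193 and 240 counts in Klf4 replicates 1 to 4. With a Klf4 mean of 3.44 ± 0.869 CPM (SD, n = 4), Kcnk15 stood at least 55.4-fold higher than a floor of 3 counts per control library (edgeR adjusted p = 3.27e-13). All Klf4 libraries stood above all controls, and by RPKM Kcnk15 went from the undetected genes to the 26th of the 92. Kcnk5, whose alkaline-activated channel carries background current in epithelia, had 0, 1, 0 and 0 control counts and 64, 46, 47 and 49 Klf4 counts. This is a ratio of 196.9 with an exact 95% interval of 34.9 to 7814, which covers counting error only (edgeR adjusted p = 4.43e-10). Kcnk6 rose from 1 to 5 counts in control to 37 to 72 counts in Klf4 libraries, a ratio of 17.1 with an interval of 9.36 to 34.9 (adjusted p = 4.52e-08). Kcnk7, a family member for which a current of its own is not established, rose from 1 to 7 counts to 14 to 35 counts, a ratio of 5.33 with an interval of 3.25 to 9.21 (adjusted p = 0.000101).

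Smaller increases in this class were those of Kcnk13 (log2 fold change 1.60), the mechanically gated Kcnk2 (1.60) and Kcnk4 (1.14), Kcnk12 (1.42) and Kcnk1 (0.13). Kcnk1 was the most abundant of the class, at 28.2 ± 1.87 CPM in control and 30.9 ± 0.743 CPM in Klf4 libraries (SD, n = 4), and its call (edgeR adjusted p = 0.0253) was lost without control replicate 1 or 4, without Klf4 replicate 1, 3 or 4, with no batch term and with no filter. The tandem-pore genes best known from β cells did not pass the threshold. Kcnk16, whose channel is typical of islets, was at 13.8 ± 0.424 and 14.5 ± 0.865 CPM (log2 fold change 0.07, 95% interval -0.05 to 0.18, adjusted p = 0.41). Kcnk3 was at 1.12 ± 0.183 and 1.46 ± 0.418 CPM (0.36, interval -0.04 to 0.77, adjusted p = 0.186), and its exons overlap the opposite-strand gene Gm9899, which rose from 1 to 8 counts to 80 to 145 counts. Kcnk16 is also the nearest protein-coding gene on 1 side of Kcnk5, 79567 bases away on chromosome 14, and the gene on the other side, Saysd1, had a log2 fold change of 0.08 (adjusted p = 0.587). Kcnk10 fell below the filter with 1 count over the control libraries and 11, 9, 3 and 12 in the Klf4 libraries, a ratio of 33.5 with an interval of 5.62 to 1359.

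Calcium- and sodium-activated genes were 8, all tested, of which 4 were higher and 1 lower (21.1% and 15.5% of all tested genes). Of the 4, Kcnn4 had control libraries under the filter's cutoff and was tested because Klf4 libraries were high. Among the 7 genes with all control libraries at the cutoff, 3 were higher and 1 lower (18.1% and 17.4% of all such genes). Kcnn4 (chromosome 7, 24370263 to 24386690, plus strand) encodes the intermediate-conductance calcium-activated channel, which is known from red cells, lymphocytes and secretory epithelia and has been described in islets. Its counts were 2, 0, 0 and 5 in control replicates 1 to 4 and 381, 281, 547 and 518 in Klf4 replicates 1 to 4. Means were 0.0365 ± 0.049 and 8.45 ± 1.99 CPM (SD, n = 4), and the counts gave a ratio of 235.8 with an exact 95% interval of 114.2 to 587.4 (log2 fold change 7.77 ± 0.26 SE, adjusted p by edgeR = 9.11e-17). No libraries of the groups came close to each other, and Kcnn4 passed every small-conductance relative on the length-scaled level except Kcnn1, from 0.00714 RPKM in control to 1.65 ± 0.389 RPKM in Klf4 libraries. Its neighbour on 1 side, Lypd5, went from 0 to 1 counts to 56 to 133 counts (log2 fold change 7.92), while Smg9 on the other side moved by 0.17.

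Among the small-conductance genes, Kcnn1 and Kcnn2 rose by less than Kcnn4, and Kcnn3 was not called. Kcnn1 went from 4.95 ± 0.479 to 9.03 ± 1.31 CPM (SD; log2 fold change 0.86, edgeR adjusted p = 3.99e-08) and Kcnn2 from 1.35 ± 0.0823 to 2.10 ± 0.246 CPM (0.63, adjusted p = 0.00291). Kcnn3 was at 2.08 ± 0.193 and 1.84 ± 0.25 CPM (-0.17, interval -0.46 to 0.12, adjusted p = 0.416). The large-conductance channel gene Kcnma1, which shapes the β-cell action potential, read 59.7, 63.9, 55.0 and 54.5 CPM in control replicates 1 to 4. In Klf4 replicates 1 to 4 it read 53.1, 54.2, 48.9 and 50.3 CPM. Every Klf4 library lay below every control library, by a log2 fold change of -0.17 (SE 0.04, adjusted p = 0.0005). Its partner Kcnmb4, the neuronal-type β subunit of that channel, was at 21.1 ± 2.94 and 20.3 ± 3.01 CPM (-0.06, adjusted p = 0.382), and Kcnmb4os2 on its opposite strand rose by 0.71. The sodium-activated subunit gene Kcnt2 rose from 0.398 ± 0.0883 to 0.862 ± 0.36 CPM (1.05, adjusted p = 0.00678), with Klf4 replicate 3, at 0.456 CPM, inside the control range.

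**Figure D3:**
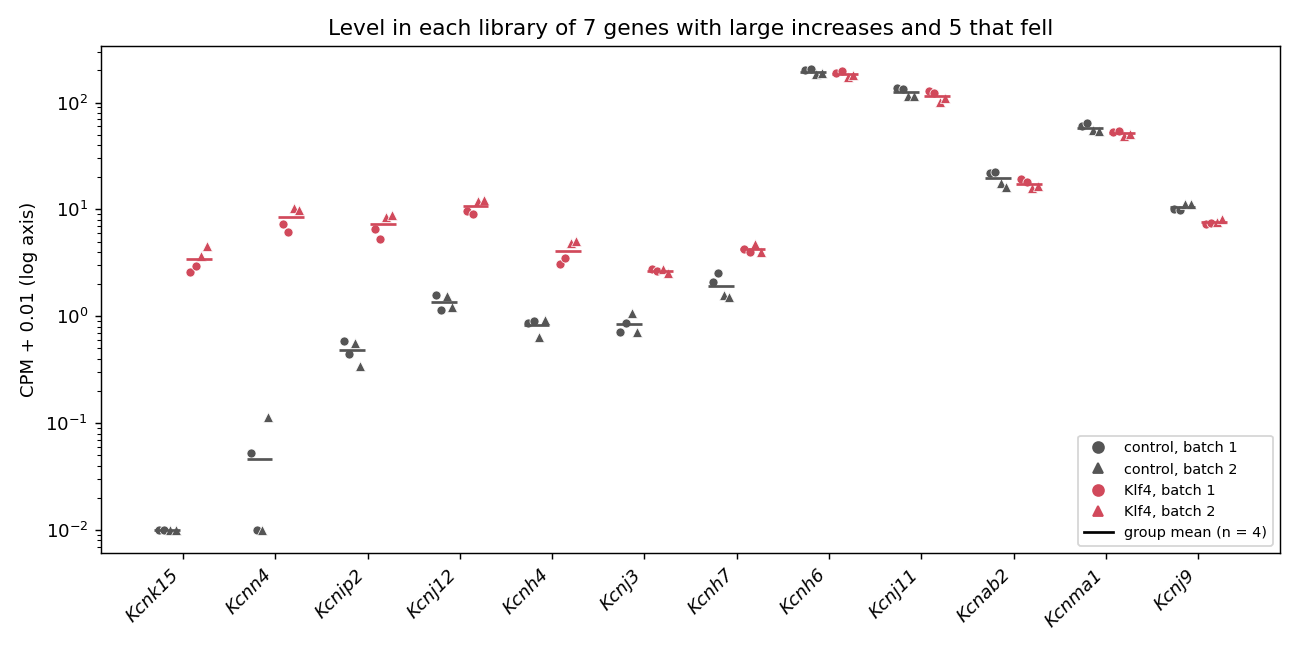
CPM + 0.01 on a log axis in each library for 7 of the 8 largest increases and the 5 decreases among called genes whose average log2 CPM is 0 or more, with circles for batch 1, triangles for batch 2 and lines for group means. The 7 genes on the left have their Klf4 libraries all above their control libraries. The 5 on the right changed by much less, and among them only Kcnj9 and Kcnma1 have groups that do not overlap.

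Among 15 inward rectifier genes, 10 were tested, 4 of them higher and 2 lower (21.1% and 15.5% of all tested genes). Of the 4, Kcnj5 had control libraries under the filter's cutoff and was tested because Klf4 libraries were high. For the 9 genes with all control libraries at the cutoff, 3 were higher and 2 lower (18.1% and 17.4% of all such genes). Kcnj12 (chromosome 11, 61022564 to 61071131, plus strand), a strong inward rectifier best known from heart and muscle, had 1.57, 1.13, 1.54 and 1.20 CPM in control replicates 1 to 4 and 9.73, 9.03, 12.03 and 12.3 CPM in Klf4 replicates 1 to 4. This is 7.91 times as much (log2 fold change 2.98 ± 0.11 SE, adjusted p by edgeR = 1.25e-15), with the groups far apart. The nearest genes on its sides, 69753 and 55624 bases away, moved by 0.80 (Map2k3) and -0.06 (Tnfrsf13b, adjusted p = 0.929). Kcnj4, of the same strong rectifier group, rose from 1.22 ± 0.471 to 2.36 ± 0.473 CPM (0.95, adjusted p = 0.000306).

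Subunits of G-protein-gated rectifiers, through which somatostatin and adrenaline can hyperpolarise β cells, moved in different directions. Kcnj3 had 0.701, 0.862, 1.05 and 0.704 CPM in control and 2.78, 2.63, 2.74 and 2.54 CPM in Klf4 replicates 1 to 4 (log2 fold change 1.68 ± 0.17 SE, adjusted p by edgeR = 3.22e-08). Kcnj5 rose from 0 to 4 counts to 16 to 35 counts, a ratio of 12.4 with an interval of 6.08 to 29.5 (adjusted p = 1.02e-05). Kcnj9 (chromosome 1, 172320501 to 172329318, minus strand) fell from 10.1, 9.77, 11.2 and 11.1 CPM to 7.35, 7.48, 7.58 and 8.13 CPM (log2 fold change -0.47 ± 0.07 SE, adjusted p = 8.26e-06), the largest decrease among the potassium channel genes, with no overlap between groups. Kcnj6, also well expressed, was at 14.5 ± 0.805 and 13.9 ± 0.946 CPM (-0.06, interval -0.18 to 0.06, adjusted p = 0.516). In Klf4 cells Kcnj9 and Kcnj6 stood at 1.78 ± 0.0799 and 1.82 ± 0.124 RPKM, and Kcnj3 at 0.512 ± 0.0212 RPKM. The Kcnj3 exons overlap the opposite-strand gene Gm26794, which had 0 to 1 counts in control and 2 to 7 in Klf4 libraries.

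Kcnj11, the pore of the ATP-sensitive channel, had 136.9, 133.6, 116.1 and 115.0 CPM in control replicates 1 to 4 and 127.8, 122.4, 100.6 and 109.8 CPM in Klf4 replicates 1 to 4. Both batches held the Klf4 libraries below the controls, while libraries of different batches overlapped. The log2 fold change was -0.12 (SE 0.03, edgeR adjusted p = 0.00383), -0.11 in batch 1 and -0.13 in batch 2, and the call was lost with no batch term (adjusted p = 0.323). The batches differed by more than the plasmids, with batch 2 at -0.24 relative to batch 1. Abcc8, the regulatory subunit of the same channel, was at 497 ± 28.7 and 481.9 ± 42 CPM (-0.05, adjusted p = 0.192). Kcnj13, below the filter, had 6, 9, 11 and 14 counts in control and 1, 2, 9 and 6 in Klf4 libraries, a ratio of 0.43 with an interval of 0.232 to 0.768, and its exons overlap the abundant opposite-strand gene Gigyf2.

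Of 30 voltage-gated pore-forming genes, 22 were tested, 13 higher and 1 lower (21.1% and 15.5% of all tested genes). Of these 13, 4 had a control library under the filter's cutoff and were tested because Klf4 libraries were high. Among the 17 with all control libraries at the cutoff, 9 were higher and 1 lower (18.1% and 17.4% of all such genes). The ether-à-go-go families were prominent by level. Kcnh3, of the elk subfamily, rose from 33.7, 34.1, 30.5 and 32.6 CPM to 55.3, 50.3, 56.2 and 63.6 CPM (log2 fold change 0.78 ± 0.05 SE, adjusted p by edgeR = 6.51e-11). Its relative Kcnh4 rose from 0.849, 0.903, 0.629 and 0.911 CPM to 3.09, 3.47, 4.86 and 5.002 CPM (2.30 ± 0.17 SE, adjusted p = 1.38e-10). The eag gene Kcnh1 rose from 9.87 ± 1.64 to 16.2 ± 1.31 CPM (0.72, adjusted p = 6.53e-07). In these genes no Klf4 library reached down to a control library. The Kcnh3 exons overlap Mcrs1 on the opposite strand, a gene of 15537 to 20037 counts per library that moved by 0.07.

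The erg genes split by level. Kcnh7, the least abundant, rose from 2.10, 2.55, 1.56 and 1.49 CPM to 4.29, 4.02, 4.69 and 3.96 CPM (log2 fold change 1.15 ± 0.14 SE, adjusted p by edgeR = 7.1e-07), and its exons overlap Gca on the opposite strand, which did not pass the threshold (adjusted p = 0.0522). Kcnh2 was at 110 ± 2.55 and 110.9 ± 5.95 CPM (0.01, interval -0.05 to 0.08, adjusted p = 0.831). Kcnh6 was at 199.7, 205.9, 184.2 and 190.2 CPM in control and 187.1, 198.1, 173.5 and 180.6 CPM in Klf4 libraries (-0.08 ± 0.03 SE, adjusted p = 0.0383), lower within each batch and overlapping across them. The Kcnh6 call was lost without control replicate 4 or Klf4 replicate 1 or 3, with no batch term, with the stricter filter and with scaling on abundant genes (adjusted p up to 0.31).

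The Kcnc genes encode channels for fast repolarisation. Kcnc4 went from 13.5 ± 0.8293 to 22.8 ± 2.11 CPM (log2 fold change 0.75, edgeR adjusted p = 3.12e-09) and Kcnc2 from 2.21 ± 0.522 to 4.82 ± 0.212 CPM (1.13, adjusted p = 4.8e-07; SD, n = 4). Both rose, and their groups did not overlap. Kcnc1 was at 14.7 ± 0.768 and 15.3 ± 0.653 CPM (0.06, interval -0.05 to 0.16, adjusted p = 0.479).

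Kcnb2, a delayed rectifier subunit, was at 7.57 ± 0.508 and 8.54 ± 0.185 CPM (log2 fold change 0.18, interval 0.03 to 0.32, adjusted p by edgeR = 0.0708), and its Klf4 libraries lay just above its controls without passing the threshold. The transient-current gene Kcnd1 rose by 0.16 (adjusted p = 0.00263), from 34.8 ± 2.08 to 39.0 ± 2.05 CPM, with 1 control library inside the Klf4 range and a call that was lost with no batch term (adjusted p = 0.0567). Its relative Kcnd3, at 0 to 1 counts in control libraries, had 17 to 28 in Klf4 libraries, a ratio of 43.5 with an interval of 11.7 to 364.5 (adjusted p = 4.7e-07).

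The M-current family gene Kcnq3 rose from 1 to 7 counts to 11 to 29 counts (log2 fold change 2.43, adjusted p by edgeR = 0.000763). Kcnq1, named in human studies of type 2 diabetes, had 23 counts over the control and 38 over the Klf4 libraries and was not tested; the abundant opposite-strand gene Kcnq1ot1 overlaps it. Both Shaker-family genes that rose had few counts in control: Kcna4 rose from 1 to 6 counts to 29 to 44 counts (3.47, adjusted p = 7.81e-07), and Kcna6 from 0, 0, 1 and 0 counts to 13, 13, 18 and 25 counts, a ratio of 66 with an interval of 11.5 to 2642 (adjusted p = 1.93e-06). Kcna1 and Kcna5, which lie in the same cluster on chromosome 6 as Kcna6, had no counts in any library. Kcna7 had 2 to 9 counts in control and 5 to 16 in Klf4 libraries and was not tested.

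Silent modifier genes, whose subunits form no channel alone and change the gating of Kcnb channels, numbered 10. Of these, 6 were tested, 4 higher and 0 lower (21.1% and 15.5% of all tested genes). All 4 had a control library under the filter's cutoff and were tested because Klf4 libraries were high, and the 1 tested gene with all control libraries at the cutoff was not called. Kcng1 had 1, 0, 0 and 0 counts in control and 33, 27, 66 and 74 in Klf4 replicates 1 to 4, a ratio of 191.2 with an interval of 33.9 to 7588 (edgeR adjusted p = 1.18e-09). The batch 2 libraries held more than those of batch 1, and each Klf4 library stood above every control. Kcns2 rose from 1 to 8 counts to 17 to 43 counts (log2 fold change 2.43, adjusted p = 0.000163), Kcng4 from 3 to 10 to 14 to 28 counts (1.46, adjusted p = 0.00482) and Kcns3 from 0 to 15 to 21 to 32 counts (1.38, adjusted p = 0.0188). The Kcns3 call was lost without Klf4 replicate 2 or 4 and with no batch term (adjusted p up to 0.117). By RPKM these reached at most 0.216 in Klf4 cells (Kcng1), against 0.563 for Kcnb2.

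Of 15 auxiliary genes, 10 were tested, 2 higher, 1 lower and 7 not called. All 10 had every control library at the filter's cutoff, and 18.1% and 17.4% of all such genes were higher and lower. Kcnip2 (chromosome 19, 45791839 to 45816061, minus strand) binds Kcnd channels and is best known from the heart. It had 27, 21, 27 and 16 counts in control and 341, 240, 442 and 467 counts in Klf4 replicates 1 to 4. Kcnip2 rose 15.5-fold, with means of 0.471 ± 0.112 and 7.29 ± 1.64 CPM over 4 libraries (SD; log2 fold change 3.94 ± 0.16 SE, adjusted p by edgeR = 5.91e-15), with no library near those of the other group. Its neighbours, 8002 and 1303 bases away, moved by -0.02 (Mgea5) and -0.04 (Armh3), neither past the threshold. Among the other genes of its family, Kcnip3 was at 107.7 ± 5.16 and 107.9 ± 9.85 CPM (0.00, interval -0.06 to 0.06, adjusted p = 0.999) and Kcnip1 at 29.5 ± 2.75 and 27.1 ± 1.79 CPM (-0.12, interval -0.21 to -0.02, adjusted p = 0.062). On the length-scaled level Kcnip2 reached 2.1 ± 0.473 RPKM, against 30.4 ± 2.78 RPKM for Kcnip3 in the same cells.

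The cytoplasmic β subunit genes split. Kcnab3 rose from 26.2, 25.5, 21.8 and 22.2 CPM to 31.0, 32.6, 27.5 and 31.4 CPM (log2 fold change 0.36, edgeR adjusted p = 4.22e-06), with the groups apart. Kcnab2 fell from 21.8, 22.4, 17.8 and 16.2 CPM to 19.2, 18.1, 15.8 and 16.6 CPM (-0.16 ± 0.06 SE, adjusted p = 0.028), with overlap in batch 2. That call was lost without control replicate 2 or Klf4 replicate 1 or 2, with no batch term and with scaling on abundant genes (adjusted p up to 0.303). Kcne3, an epithelial partner of Kcnq1, had 0 to 8 counts in control and 5 to 16 in Klf4 libraries and was not tested.

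RefSeq promoter windows, 250 bases before to 50 after a gene's start in GRCm38.p6, were at hand for 67 of the 92 genes. Klf4 is known to bind CACCC-type elements, so CCCCACCC and its core CACCC were searched on both strands, the shorter lying within the longer. The windows of 8 of 26 higher genes, 0 of 4 lower genes and 7 of 18 tested genes that were not called were counted for CCCCACCC. The share so counted was 30.8% of higher and 38.9% of uncalled genes, against 14.2% of all tested genes with a window. CACCC was in 23 of 26 higher and 17 of 18 uncalled genes, against 67.8% of all tested genes. For CACCC, a higher share in raised than in uncalled potassium channel genes was thus not seen. For CCCCACCC the counts cannot decide this, because they include windows counted for GGGGTGGG. Over all genes called higher CACCC was in 77.2%, and 19.6% were counted for CCCCACCC. Shown are the bases before the start, outside annotated exons, for the genes of the largest increases (Kcnk15 and Kcnn4) and for an erg pair. Both of the pair were counted for the longer motif, but only the raised Kcnh7 holds it in the stretch shown. Kcnh2, which was not called, holds GGGGTGGG. Each runs 5′ to 3′ on the gene's strand, with matches to either motif or its reverse complement in capitals. The exception is GGGGTGGG in Kcnh2, which holds a match to the core alone.
Kcnk15, chr2:163853500-163853650, plus strand: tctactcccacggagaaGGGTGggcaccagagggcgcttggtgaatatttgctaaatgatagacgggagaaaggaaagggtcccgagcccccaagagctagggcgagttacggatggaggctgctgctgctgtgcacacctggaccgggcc
Kcnn4, chr7:24370013-24370262, plus strand: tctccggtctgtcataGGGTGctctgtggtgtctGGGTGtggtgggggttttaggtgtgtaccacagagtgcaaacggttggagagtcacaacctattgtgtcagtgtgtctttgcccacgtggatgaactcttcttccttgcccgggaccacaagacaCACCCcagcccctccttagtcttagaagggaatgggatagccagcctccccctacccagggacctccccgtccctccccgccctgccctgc
Kcnh7, chr2:63184288-63184537, minus strand: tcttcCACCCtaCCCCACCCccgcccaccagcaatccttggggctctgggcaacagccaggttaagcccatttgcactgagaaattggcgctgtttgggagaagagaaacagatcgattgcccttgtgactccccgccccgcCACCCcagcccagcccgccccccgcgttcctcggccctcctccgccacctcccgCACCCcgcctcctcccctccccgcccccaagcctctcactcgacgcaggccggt
Kcnh2, chr5:24329592-24329841, minus strand: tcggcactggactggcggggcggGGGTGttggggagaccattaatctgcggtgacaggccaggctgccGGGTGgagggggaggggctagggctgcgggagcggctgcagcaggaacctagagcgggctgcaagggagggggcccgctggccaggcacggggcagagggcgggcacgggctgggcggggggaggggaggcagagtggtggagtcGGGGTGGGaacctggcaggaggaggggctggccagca
These stretches hold 1, 3, 4 and 3 matches to the core and 0, 0, 1 and 0 to the longer motif. The Kcnh2 stretch lies before a RefSeq start inside the annotated gene, which spans 24319589 to 24351604 on chromosome 5, and not at the gene's outermost start. The Kcnk15 stretch ends 100 bases before the start because annotated exons begin there. A match is a description of letters, and binding was not measured.

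The effect was compared between batches. All 41 called genes had the same sign in both. They were called from these same libraries of both batches, which favours equal signs, so this is no separate check. Of the 68 tested genes, 39 were called with the Klf4 libraries of each batch beyond its controls in the called direction, against 32.7% of all tested genes, and the called genes without this were Kcnt2 and Kcnab2. The 39 include all 15 higher genes that had a control library under the filter's cutoff and were tested because Klf4 libraries were high. No potassium channel gene passed the edgeR interaction test (adjusted p under 0.05, passed by 0.766% of all tested genes), and DESeq2 also called 0. The unadjusted edgeR p was under 0.05 for 7 of the 68, about the share of all tested genes (10.6%). Closest was Kcnh1, with a log2 fold change of 0.47 in batch 1 and 0.99 in batch 2 (interaction adjusted p = 0.0577). It passed under 5 of the alternatives: both other scalings, both other filters and without control replicate 3. The increase was larger in batch 2 for 26 of the 36 higher genes. How many of all genes called higher do the same was not counted, so this is not read as a trait of the potassium channel genes. Where control libraries held no or few counts, as for Kcnk15 and Kcng1, the direction is uncertain. Klf4 itself had a log2 fold change of 6.79 in batch 1 and 7.16 in batch 2, whose part in the larger batch 2 increases was not tested.

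**Figure D4:**
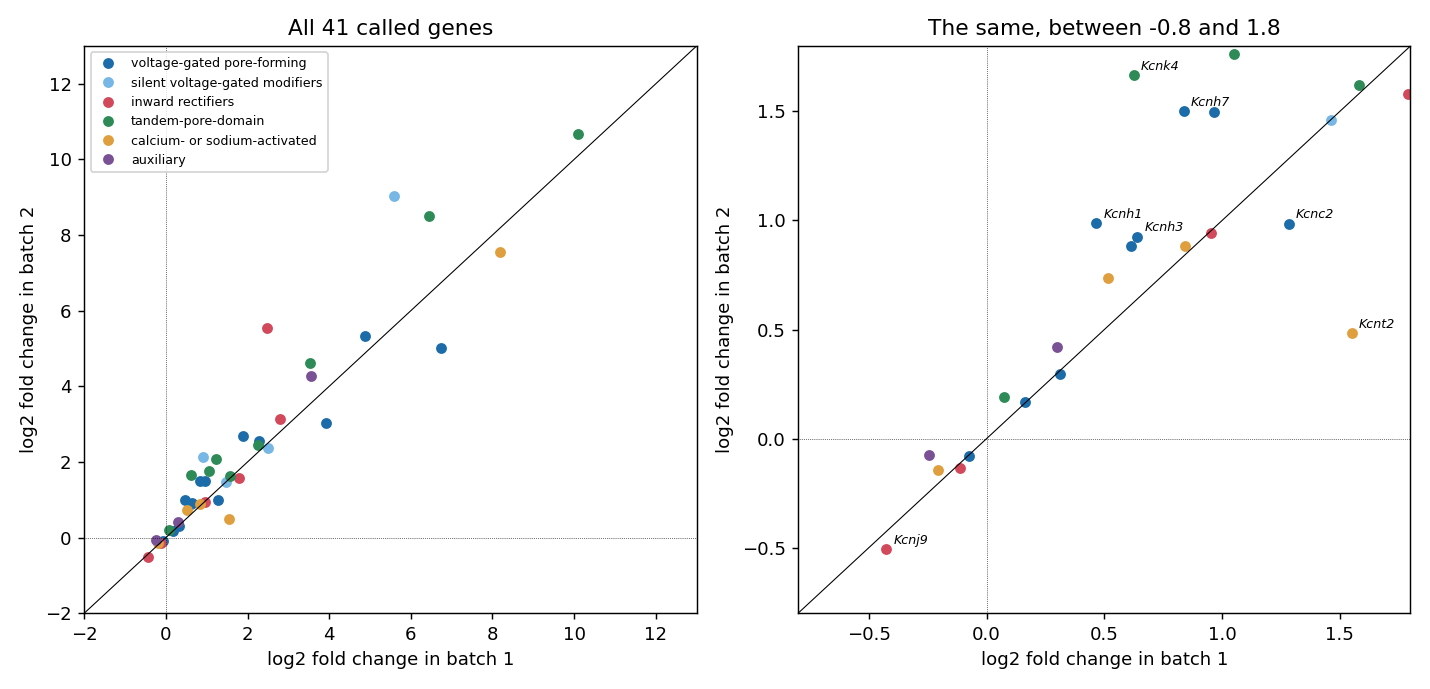
Log2 fold change of Klf4 over control in batch 1 (x axis) and batch 2 (y axis) for the 41 called genes, each from 2 against 2 libraries, coloured by class, with the line of equal change. The right panel enlarges the range around zero. All points lie in the quadrants of equal sign, which calling the genes from these same libraries favours. In the enlarged panel Kcnt2 (1.55 and 0.48) lies farthest below the line.

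Batches also differed in level. The batch term passed the threshold for 18 of the 68 tested genes, 12 lower and 6 higher in batch 2, against 25.1% of all tested genes (edgeR). Batch 2 was lower for Kcnip3 (log2 difference -0.17, adjusted p = 0.000384) and higher for Kcnmb4 (0.36, adjusted p = 9e-06), neither of which was called for Klf4.

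Other genes of potassium channel complexes and K+ handling were taken from a list of 24, of which 21 were tested, 6 higher and 4 lower, against 21.1% and 15.5% of all tested genes, with a median log2 fold change of -0.04. Accessory subunits of Kcnd channels were lower, Dpp6 from 50.1 ± 2.31 to 44.9 ± 3.54 CPM (log2 fold change -0.16, edgeR adjusted p = 0.0017) and Dpp10 from 6.77 ± 1.3 to 5.35 ± 0.912 CPM (-0.34, adjusted p = 0.00447). Vapb, an endoplasmic reticulum protein that binds Kcnb channels, fell by 0.11 on the log2 scale (adjusted p = 0.00475). These calls were lost with no batch term. Among genes of the hyperpolarisation-activated channels, Hcn2 rose from 132.4 ± 5.66 to 148 ± 8.12 CPM (0.16, adjusted p = 0.000119). Hcn3 (-0.16, adjusted p = 0.0317) passed the threshold but not with the replicate number as a block (adjusted p = 0.0515), and its call was also lost with no batch term, with scaling on abundant genes and without control replicate 3 or Klf4 replicate 3 or 4. Atp1b3, a β subunit of the Na+/K+ ATPase, rose by 0.17 (adjusted p = 0.000152). The organelle channel gene Tmem38a rose by 0.20 (adjusted p = 0.00205).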

How the data were processed

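The deposited values are whole-number read counts per gene, not normalised, 1 column per library. The submitters' processing notes name FastQC, STAR, featureCounts, edgeR and mm10, and the deposited table is named as cutadapt-trimmed. The strand setting and the annotation are not given in the sources used here, so counts of genes with opposite-strand partners are uncertain, as for 14 of the 41 called genes; the exons of 2 more overlap a gene on the same strand. All 55536 pairs of identifier and symbol were those of GENCODE M21 (GRCm38), which gave coordinates and exonic lengths.

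Counts were analysed in edgeR 4.0.16 (R 4.3.3). The filter was filterByExpr at a minimum count of 10, which left 18266 genes. They were scaled with TMM factors and fitted with glmQLFit on batch and plasmid over all genes. The potassium channel rows were then read out. P-values were adjusted by Benjamini-Hochberg over all tested genes, with a threshold of 0.05. Batch by plasmid was an interaction term. Fold changes are log2 of Klf4 over control, CPM uses TMM-scaled totals, and RPKM divides by the exonic length of all isoforms. Ratios for genes of few counts carry exact binomial intervals, which cover counting error only.

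The members and lists were chosen with earlier results of these data known. Named were all called members, 19 genes known from β cells, the 5 of highest control RPKM, members under the filter with at least 10 counts in 2 libraries of a group, and called partner genes. Some genes that this rule names are not reported here; they stay in every count. Full values go to the 8 highest and 8 lowest called changes at an average log2 CPM of at least 0.

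Alternatives were no batch term, the replicate block, DESeq2 size factors, scaling on genes of average log2 CPM of at least 6, DESeq2 1.42.0, limma-voom (limma 3.58.1), 2 other filters and leaving out each library. The batch term was tried under alternatives chosen after seeing the data. Deviations from group means of same-numbered libraries correlated at 0.638, 0.479, 0.59 and 0.551 over 10485 genes. Differently numbered libraries of the same batch correlated at 0.558, 0.593, 0.57 and 0.49. Pairing by the numbers in the titles, beyond the shared batch, is thus not shown. Once batch means were removed, the same-numbered values were -0.0499 in batch 1 and 0.0865 in batch 2. No 2 libraries of a group were alike within counting error (chi-square per degree of freedom 4.23 to 23.3). The labels call them biological replicates without naming separate cultures, so p-values measure the spread between these libraries. In counts simulated for the plasmid comparison (17992 genes), 84% of genes with a log2 change of 1, 76% at 0.5, 63.3% at -0.5 and 89.8% at -1 were called, and 0.0506% of unchanged genes.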

Additional observations from a re-analysis of the deposited data

Results flagged for a closer look

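A library far from the other 3 of its group was looked for 133 times and found 8 times, where chance gives about 6.65. In 4 cases a control library held the group's only count, for Kcna6 (replicate 3, 0.0203 CPM), Kcng1 (replicate 1, 0.0212 CPM), Kcnk10 (replicate 1, 0.0212 CPM) and Kcnk5 (replicate 2, 0.0205 CPM), all under the floor of 3 counts. For Kcnk10, Klf4 replicate 3 was lowest at 0.057 CPM, against 0.199 to 0.227 CPM in the others. Kcnk12 had 0.513 CPM in control replicate 2, against 0.446 to 0.456 CPM, and its log2 fold change without that library was 1.54 against 1.42 with it. Kcns3 had 0.706 CPM in Klf4 replicate 2, against 0.399 to 0.417 CPM, and without it the call was lost. Kcnj6 had 12.5 CPM in Klf4 replicate 4, against 14.3 to 14.5 CPM, and without it the log2 fold change was -0.02.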

How the results depend on the processing

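Of the 41 called genes, 35 kept their call and direction under every alternative that tested them and 6 lost it in some; none changed sign. The replicate block gave the same 41 genes. With no batch term 35 of them were called, 2 lower rather than 5, and the count of all tested genes changed was 4116 in place of 6684. The filter at 1 CPM in 4 libraries left 46 genes tested and 23 called, 19 of them higher; 17 of the 18 lost were not tested. Scaling on abundant genes left 3 lower. Leaving out single libraries gave 38 to 44 called genes, 3 to 6 of them lower, the fewest without Klf4 replicate 1. The count of genes whose effect differed between batches went from 0 to 1, always Kcnh1, with DESeq2 size factors, scaling on abundant genes, no filter and the 1 CPM filter, and lay between 0 and 1 when libraries were left out. Among the other genes named here the block changed the call of Hcn3 alone. Uncalled genes near zero changed sign. The log2 fold change of Kcnh2 lay between -0.027 and 0.030 when libraries were left out. The log2 fold change of Kcnip3 was -8.67e-05 with the replicate block, -0.0043 with DESeq2 size factors and in DESeq2's own test, -0.010 with no filter, and between -0.033 and 0.011 when libraries were left out. The share of calls that were higher, over all tested genes, was 57.7%, 71.8% with no batch term and 64.1% with scaling on abundant genes. Counts of 0 in a library limit what can be said of the genes under the filter.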
